A study of Mus musculus with 12 samples.

Results

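A set of 9 chemokine genes that leukemic blasts can transcribe were followed through 12 RNA-seq libraries of blasts, grouped by genotype and organ. They are Ccl2, Ccl3, Ccl4, Ccl6, Ccl9, Cxcl2, Cxcl9, Cxcl10 and Cxcl16, taken by their symbols from a table of 24454 genes, and all 9 were found there. The blasts came from a mouse model of acute myeloid leukemia (AML) in which fetal liver cells of wildtype (WT) or STAT3β-deficient (Δβ) embryos were retrovirally transduced with MLL-AF9, a fusion oncogene, linked to the fluorescent protein Venus. Cells of both genotypes were injected into young adult NSG males (NOD.Cg-Prkdc scid Il2rg tm1Wjl/SzJ), which lack mature T, B and NK cells but keep their own myeloid cells and stroma. Venus-positive blasts were sorted from the spleen (SP) and bone marrow (BM) once the recipients were diseased, giving the groups WT SP, Δβ SP, WT BM and Δβ BM with 3 libraries each. All 4 groups therefore carry MLL-AF9 and Venus, and the genotypes differ in whether the blasts can make the β isoform of STAT3. The labels do not say whether SP and BM libraries of 1 number came from 1 mouse, nor how many independently transduced lines were used, so that p-values measure the spread between these libraries only.

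Chemokines are small secreted proteins that steer leukocytes through G protein-coupled receptors. Ccl2 attracts monocytes through CCR2, Ccl3 and Ccl4 are inflammatory chemokines of macrophages and lymphocytes (Ccl3 binds CCR1), and Ccl6 and Ccl9 are CCR1 ligands of myeloid cells found in rodents. Cxcl2 draws neutrophils through CXCR2, Cxcl9 and Cxcl10 are interferon-inducible ligands of CXCR3 on activated T and NK cells, and Cxcl16 is a membrane-bound ligand of CXCR6 that can be shed. Ccl2, Ccl3, Ccl4 and Cxcl2 are known as fast targets of NF-kB and of immediate early signalling in myeloid cells, whereas Cxcl9 and Cxcl10 are known as targets of interferon signalling.

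On GRCm38 (GENCODE M21) 6 of the 9 genes lie on chromosome 11, the chromosome of Stat3. Ccl9, Ccl6, Ccl3 and Ccl4 form a cluster at chr11:83572919-83664683, Ccl2 lies at chr11:82035571-82037453 and Cxcl16 at chr11:70453983-70459984. Cxcl2 (chr5:90903871-90905938), Cxcl9 (chr5:92321347-92328079) and Cxcl10 (chr5:92346638-92348889) are on chromosome 5. The RefSeq promoter table (GRCm38.p6) held the 250 bases before the start of 6 members, namely Ccl3, Ccl6, Ccl9, Cxcl2, Cxcl9 and Cxcl10. Of these, 3 are printed 5′ to 3′ on the strand of the gene, because Cxcl2 was the member that differed most between groups and Cxcl10 and Cxcl9 are the interferon-inducible pair. Capitals mark matches, on either strand, to an NF-kB motif, to the interferon response element (GAAA, any 2 bases, GAAA) or to the AP-1 motif TGANTCA.
Cxcl2, chr5:90903649-90903898, plus strand: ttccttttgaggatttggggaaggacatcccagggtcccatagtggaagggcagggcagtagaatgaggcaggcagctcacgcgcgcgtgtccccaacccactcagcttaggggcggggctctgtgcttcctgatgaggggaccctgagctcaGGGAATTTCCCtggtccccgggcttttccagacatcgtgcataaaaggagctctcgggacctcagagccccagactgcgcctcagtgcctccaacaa
Cxcl10, chr5:92348890-92349139, minus strand: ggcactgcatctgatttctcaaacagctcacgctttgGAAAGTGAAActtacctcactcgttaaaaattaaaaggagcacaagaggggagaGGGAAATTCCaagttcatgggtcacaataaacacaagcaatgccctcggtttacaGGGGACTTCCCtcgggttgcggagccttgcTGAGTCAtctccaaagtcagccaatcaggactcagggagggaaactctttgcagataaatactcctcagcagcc
Cxcl9, chr5:92328080-92328329, minus strand: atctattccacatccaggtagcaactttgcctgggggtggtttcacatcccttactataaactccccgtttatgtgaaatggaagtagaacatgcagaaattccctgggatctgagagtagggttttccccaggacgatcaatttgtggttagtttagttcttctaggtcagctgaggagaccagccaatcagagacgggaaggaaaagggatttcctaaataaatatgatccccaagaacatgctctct
In the Cxcl2 stretch the capitals are a pair of overlapping NF-kB matches, from base -97 to -87 before the start. The Cxcl10 stretch held an interferon response element at -213 to -204, NF-kB matches at -159 to -150 and, overlapping each other, at -104 to -94, and an AP-1 match at -74 to -68, whereas the Cxcl9 stretch held no match to any motif searched. Among the other 3, Ccl9 had an NF-kB and an AP-1 match, and Ccl3 and Ccl6 had none. An NF-kB match was thus found in 3 of 6 members against 7.28% of 32526 promoters of the same length, an AP-1 match in 2 of 6 against 6.73% and an interferon response element in 1 of 6 against 2.98%. The STAT motif TTCNNNGAA was found in 0 of 6 members and in 7.04% of promoters.

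The libraries held 9001051 to 13859727 reads on genes. Values are the authors' normalized counts (reads divided by a size factor), and fewer than 3 reads were not taken as expression, a floor of counting error only. Markers of the labelled cells were present, with summed normalized counts of 9 blast and immature myeloid genes between 60772 and 173818. The sums of 6 mature neutrophil genes lay between 41295 and 189192, and whether blasts or other cells made these transcripts was not tested. Of markers of other cells, 7 erythroid genes summed to at most 14.9 and 5 endothelial genes to at most 8.70, but 5 megakaryocyte and platelet genes reached 106, 5 lymphoid genes 132.6, 5 stromal genes 534 and 12 tissue macrophage genes 7195. Of the stromal sum of 534, 529 was Pdgfrb. The ribosomal RNA precursor Rn45s took 0.725%, 2.48% and 2.41% of the reads in WT SP, more than in any other library (0.178% to 0.655%). WT SP replicate 3 stood apart from the other WT SP libraries, with 40587 normalized counts of the blast enzyme gene Mpo against 5947 and 5256. This value lay inside the range of Δβ SP (53209, 25775 and 30744). The tests of the 7 members in SP and by organ in WT are also given without this library. In SP its omission is not a neutral check, since it was the lowest WT SP library for Ccl2, Ccl3, Ccl4, Ccl6, Ccl9 and Cxcl2. Stat3 itself was counted over both isoforms, so that the label Δβ could not be checked from gene counts. As a gene it was not called in any comparison (adjusted p of at least 0.375, limma). In sorted bulk RNA, fewer transcribing blasts and less RNA per blast cannot be told apart.

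Per kb of exon, the order of mean levels over the 12 libraries was Ccl6, Ccl3, Ccl9, Cxcl2, Ccl2, Ccl4, Cxcl10, Cxcl16 and Cxcl9. Ccl6 averaged 1018 normalized counts per kb, which placed it at percentile 93.9 of 11120 genes, and Ccl3 (483) and Ccl9 (384) were at percentiles 84.0 and 79.5. Cxcl2 averaged 179 normalized counts per kb, but 88.8 without WT SP replicate 1, and Ccl2 averaged 75.6 and Ccl4 45.6. Within WT SP, Cxcl2 (550.3 per kb) came before Ccl9 (531), and within WT BM it came after Ccl2 and Ccl4 (36.6 against 47.5 and 39.3). The CXCR3 and CXCR6 ligands stood far lower, at 14.9 for Cxcl10, 3.58 for Cxcl16 and 2.31 for Cxcl9. Neighbours in this order exchanged places between libraries: Ccl6 exceeded Ccl3 in 8 of 12 libraries and Ccl3 exceeded Ccl9 in 7 of 12, whereas Ccl4 exceeded Cxcl10 and Cxcl10 exceeded Cxcl16 in 11 of 12. Among the 9, the blasts were thus richest in transcripts of the CCR1 ligands.

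**Figure D1:**
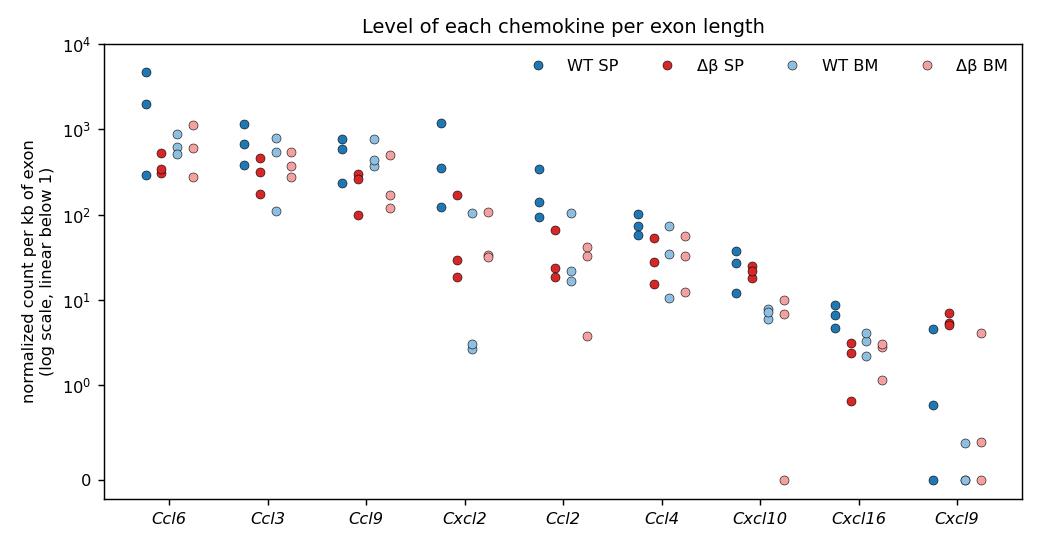
Normalized counts per kb of exon (log scale, linear below 1) of the 9 chemokines in each of the 12 libraries, coloured by group, in the order of their mean. Ccl6, Ccl3 and Ccl9 are highest, Cxcl9 and Cxcl16 lie below 10, and Cxcl2 ranges from 2.67 to 1176.

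In SP, transcripts of all 7 chemokines with enough reads for a test were on average lower in Δβ than in WT blasts, but none passed the adjusted threshold. The test was limma on log2(normalized count + 1) of 11476 genes averaging at least 10, which left out Cxcl9 and Cxcl16, with Benjamini-Hochberg adjustment over all genes tested. In SP 0 of 7 members were called beside 0.105% of all genes, and 3 of 7 were lower at an unadjusted p under 0.05 beside 8.96% of all genes. The median log2 fold change of the 7 was -1.37, against -0.01 over all genes tested. The direction held in 7 of 7 with all libraries, and in 6 of 7 without WT SP replicate 3 (median -1.76). Without WT SP replicate 1 it held in 7 of 7 (median -1.16, 0 called). Rn45s was higher in every WT SP than in every Δβ SP library (0.224% to 0.43%), and its part in the chemokine values was not tested.

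Among the ligands of monocyte receptors, Ccl2 was counted at 279, 114 and 76.1 in the WT SP libraries, and at 19.4, 53.8 and 14.9 in those of Δβ SP (normalized counts of replicates 1, 2 and 3, the order kept from here on). All 3 WT values were above all 3 Δβ values, as for 9.37% of all genes tested in this direction. The means were 157 ± 108 and 29.4 ± 21.3 (SD, n = 3), and Δβ minus WT came to -2.38 on the log2 scale (SE 0.92, 95% interval -4.40 to -0.35, limma adjusted p = 0.286). Ccl4 gave 67.2, 48.8 and 37.5 in WT SP and 10.1, 34.7 and 18.1 in Δβ SP. Here too the groups did not overlap, with a log2 fold change of -1.37 (SE 0.71, limma adjusted p = 0.378). Ccl3 gave 512, 885 and 295 in WT SP and 133, 356 and 243 in Δβ SP, and the groups overlapped (-1.17, SE 0.67, limma adjusted p = 0.414). The log2 fold changes without WT SP replicate 3 were -2.78 for Ccl2, -1.57 for Ccl4 and -1.57 for Ccl3 (limma adjusted p = 0.0860, 0.198 and 0.152).

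Ccl6, the most abundant member, was the only one whose call depended on the tool. Over the 5 comparisons edgeR called 0 members and DESeq2 called 1, Ccl6 in SP. WT SP libraries held 6828, 2865 and 420.1 normalized counts of it, against 753, 446 and 497 in Δβ SP. WT replicates 1 and 2 were far above every Δβ library, while WT replicate 3 was below all of them. With limma the log2 fold change was -1.87 (SE 0.83, adjusted p = 0.330), and with edgeR on the recovered reads -2.53 (adjusted p = 0.202). DESeq2 called Ccl6 lower (log2 fold change -2.55, adjusted p = 0.0477), 1 of 7 members beside 2.74% of all genes called lower by DESeq2. Without WT SP replicate 3, limma called it as well (-3.0, SE 0.54, adjusted p = 0.0121), in a fit that called 11.7% of all genes lower. Without WT SP replicate 1, the highest library, the log2 fold change was -0.99 (limma adjusted p = 0.753). Ccl9, its neighbour in the cluster, gave 2304, 1769.9 and 710.4 in WT SP and 907, 296 and 779 in Δβ SP, with overlapping groups (-1.26, SE 0.61, limma adjusted p = 0.359). Leaving out WT SP replicate 3 gave -1.76 (limma adjusted p = 0.0723), and leaving out Δβ SP replicate 2 gave -0.76.

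Cxcl2 varied most. Normalized counts were 2186, 657 and 226 in WT SP and 55.0, 318 and 34.2 in Δβ SP. A single Δβ library, replicate 2, exceeded WT replicate 3, and the mean was 7.54-fold lower in Δβ. The log2 fold change was -3.01 with an SE of 1.34 (limma adjusted p = 0.332), so the interval of -5.97 to -0.05 nearly reached 0. It was -3.81 without WT SP replicate 3 (limma adjusted p = 0.0936) and -2.17 without WT SP replicate 1 (limma adjusted p = 0.723).

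The interferon-inducible ligands and Cxcl16 were scarce. Cxcl10 had 18.2, 41.3 and 56.8 normalized counts in WT SP and 27.1, 38.1 and 33.1 in Δβ SP, from 16 to 56 reads a library. The Δβ values lay inside the WT range, and the log2 fold change was -0.11 (95% interval -2.03 to 1.81, limma adjusted p = 0.961). Without WT SP replicate 3 it was 0.23. Cxcl9 had 2.28, 0 and 13.2 normalized counts in WT SP and 15.5, 14.6 and 20.3 in Δβ SP. Every Δβ library was thus above every WT library, but WT replicate 3 and Δβ replicate 2 held 13 reads each and differed by size factor only. Of all genes tested, a set that leaves out Cxcl9 and Cxcl16, 7.92% were separated in this direction. Cxcl16 went the other way, with 12.5, 18.0 and 23.3 in WT SP and 8.53, 2.24 and 6.41 in Δβ SP. These values did not overlap either, but replicate 1 of both genotypes held 11 reads. Both were below the level filter. In a fit of 17258 genes without it, their log2 fold changes were 2.29 (SE 1.0, limma adjusted p = 0.395) for Cxcl9 and -1.59 (SE 0.55, limma adjusted p = 0.322) for Cxcl16, neither past the threshold.

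**Figure D2:**
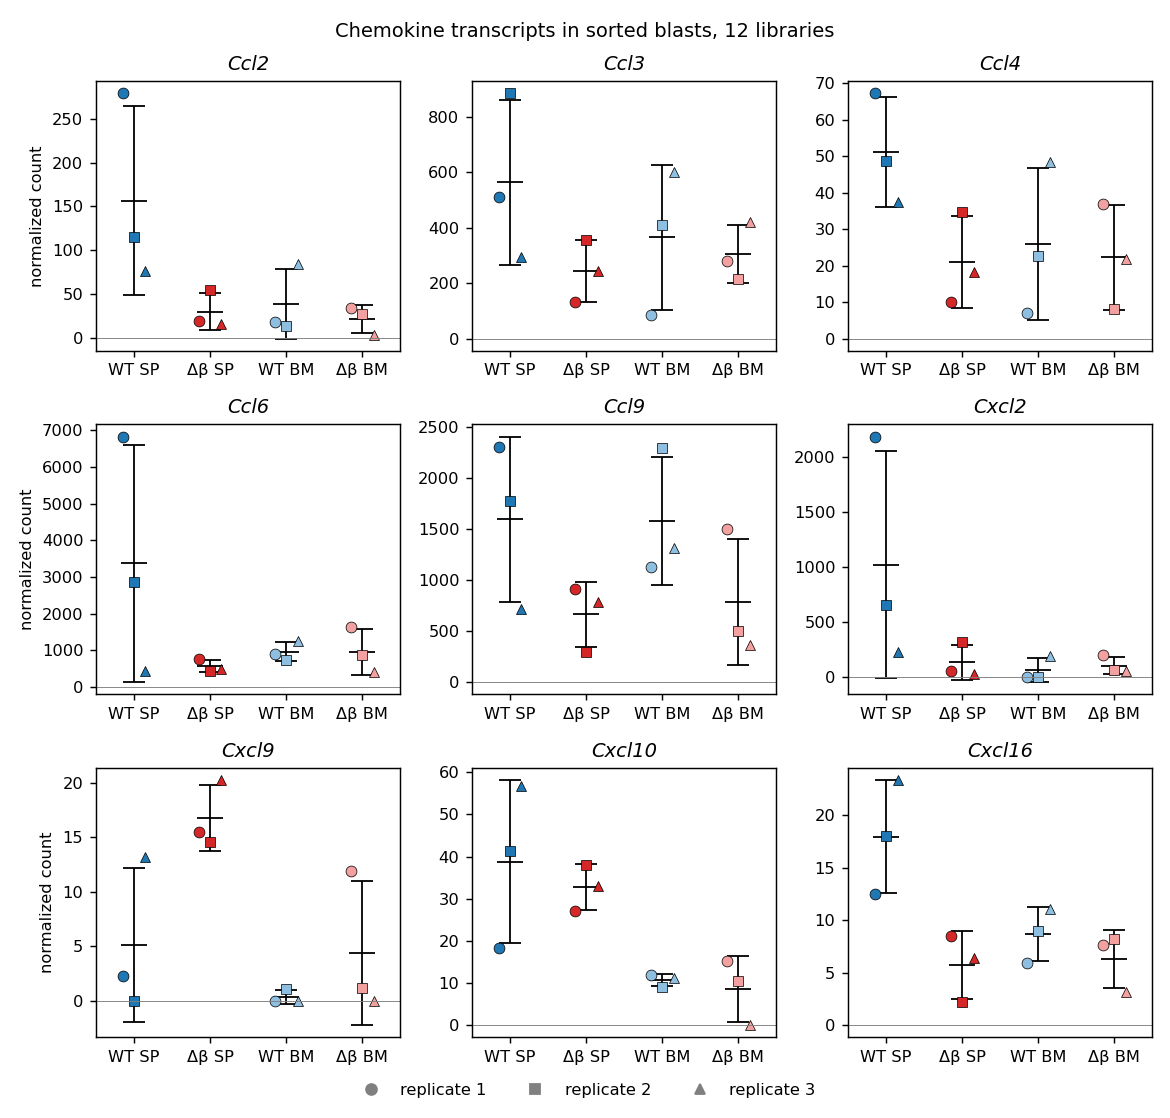
Normalized counts of each chemokine in the 12 libraries, each panel with its own linear axis from 0. Points are libraries, with the shape giving the replicate number, and bars give the mean ± SD of 3. WT SP replicate 1 is the highest library for Ccl2, Ccl4, Ccl6, Ccl9 and Cxcl2, and the Δβ SP libraries lie above WT SP for Cxcl9 only.

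In BM, the genotypes were not told apart for any chemokine. None of the 7 tested members was called (0.0697% of all genes were), 0 had an unadjusted p under 0.05, 2 had a positive and 5 a negative log2 fold change, and their median was -0.19 against -0.02 over all genes. Ccl6 averaged 964 ± 272 normalized counts in WT BM and 964 ± 627 in Δβ BM (SD, n = 3), yet the interval of its log2 fold change ran from -2.02 to 1.64. Ccl9 was the member closest to a difference, with 1124, 2291 and 1308 in WT BM against 1497, 503 and 361 in Δβ BM. The log2 difference of -1.21 (SE 0.61, limma adjusted p = 1.0, unadjusted p = 0.0736) was near that in SP, and Δβ replicate 1 exceeded 2 of the WT libraries. Ccl3 gave 84.3, 411 and 601 in WT BM and 281, 214 and 419.5 in Δβ BM, and Ccl4 gave 6.95, 22.5 and 48.3 in WT BM and 37.0, 8.18 and 21.8 in Δβ BM. The WT BM libraries thus spanned the Δβ libraries for both genes. Ccl2 was at 17.9, 13.5 and 84.6 normalized counts in WT BM and 33.7, 26.9 and 3.11 in Δβ BM, the last being 3 reads. Cxcl2 was at 4.96, 5.63 and 193 in WT BM and 200.05, 63.1 and 59.0 in Δβ BM. Here the log2 fold change was positive, 2.22 with an SE of 1.34 (limma adjusted p = 1.0), with replicates 1 and 2 of WT BM at 5 reads each. Cxcl16 had 5.95, 9.01 and 11.1 in WT BM and 7.61, 8.18 and 3.11 in Δβ BM, so that the groups overlapped.

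Between organs, Cxcl2 and Cxcl10 showed the clearest separation, again without passing the adjusted threshold. In WT blasts, Cxcl2 averaged 15.0-fold higher in SP than in BM, and the lowest SP library (226) was above the highest BM library (193). Among the 7 tested members Cxcl2 and Cxcl10 were separated in this way, beside 5.66% of all genes. The untested Cxcl16 was too (12.5 to 23.3 in SP, 5.95 to 11.1 in BM), but its nearest libraries held 11 reads each. For Cxcl2 the test gave the following values. The log2 difference of SP minus BM was 5.13 (SE 1.34, 95% interval 2.16 to 8.09, limma adjusted p = 0.531, unadjusted p = 0.00292). With limma, 0 of 7 members and 0% of all genes were called in this comparison, where 8.27% of all genes had an unadjusted p under 0.05. Without WT SP replicate 3, both Cxcl2 (5.93, SE 1.44, limma adjusted p = 0.0454) and Ccl6 (2.23, SE 0.54, limma adjusted p = 0.0448) were called higher in SP, 2 of 7 members beside 4.23% of all genes. With all libraries the difference of Ccl6 was 1.10 (SE 0.83, limma adjusted p = 0.712), and without WT SP replicate 1 it was 0.22 (limma adjusted p = 0.999), where that of Cxcl2 was 4.29 (limma adjusted p = 0.999). Ccl2 was 4.05-fold higher in WT SP than WT BM by its means, but 1 BM library (84.6) exceeded the lowest SP library (76.1), and the log2 difference was 2.24 (SE 0.92, limma adjusted p = 0.599). Leaving out WT SP replicate 3 gave 2.65 for Ccl2, 1.28 for Ccl3, 1.47 for Ccl4, 0.43 for Ccl9 and 1.30 for Cxcl10, none of them called. In Δβ blasts, with all libraries, the difference of SP minus BM was 0.72 (SE 0.92) for Ccl2 and -0.10 (SE 1.34) for Cxcl2 (limma adjusted p = 1.0 for both). The difference between genotypes in the organ difference, tested as an interaction, was -5.23 for Cxcl2 (SE 1.90, limma adjusted p = 0.926, unadjusted p = 0.0191) and did not pass. It was called for 0 of 7 members and for 0% of all genes.

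Cxcl10 had higher values in SP than in BM in both genotypes, and neither difference passed the adjusted threshold. The BM libraries had 11.9, 9.01 and 11.1 normalized counts in WT and 15.2, 10.51 and 0 in Δβ, all below the SP libraries of their genotype. In Δβ limma called 0 of 7 members and 0% of all genes. Of the 7, Cxcl10 alone did not overlap between the organs there, as for 2.92% of all genes in this direction, and its log2 difference was 2.55 (SE 0.87, limma adjusted p = 1.0, unadjusted p = 0.0139). Without Δβ BM replicate 3, the library with no read of it, the difference was 1.29 (limma adjusted p = 0.999). In WT the difference of Cxcl10 was 1.64 (SE 0.87, limma adjusted p = 0.633). The comparisons by organ and by genotype use the same 12 libraries and are not independent. Cxcl9 was at 0, 1.13 and 0 in WT BM and at 11.96, 1.17 and 0 in Δβ BM, so that all 3 Δβ SP libraries lay above all BM libraries. Listed at 0 means no read, which in Δβ BM replicate 3 allows up to 3.11 normalized counts of Cxcl10 or Cxcl9. Ccl9 was nearly level between organs in WT, with means of 1595 ± 811 in SP and 1575 ± 628 in BM (SD, n = 3) and a 95% interval of the log2 difference from -1.42 to 1.27.

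**Figure D3:**
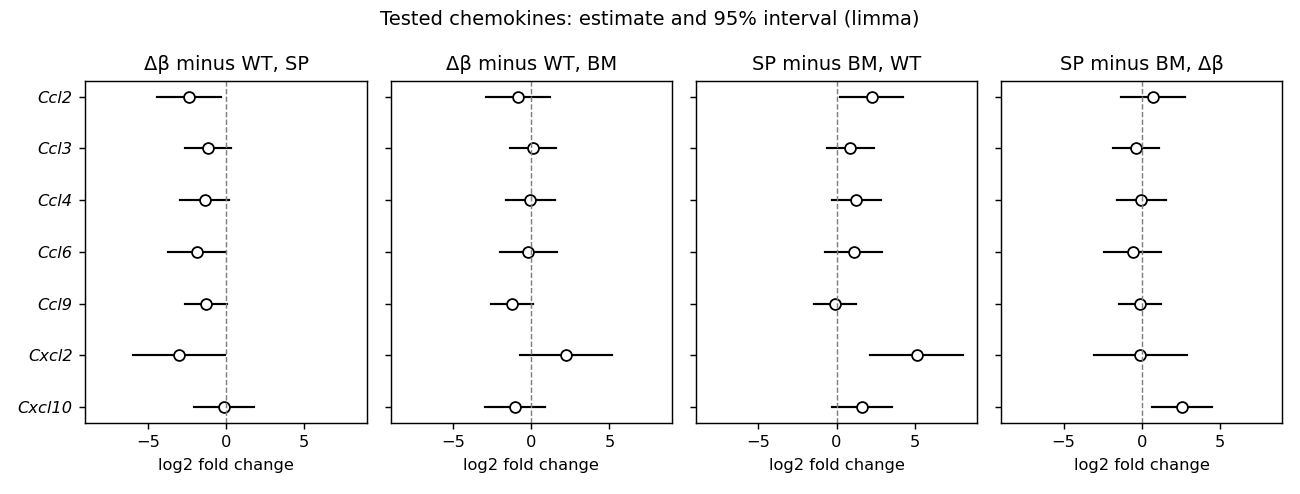
Log2 fold changes (points) with 95% intervals (lines) of the 7 tested chemokines from limma, by genotype (Δβ minus WT, per organ) and by organ (SP minus BM, per genotype). Open points mark an adjusted p of at least 0.05, which holds for all 28, and the estimates for Δβ minus WT in SP lie left of 0 for all 7.

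Libraries of 1 group also differed in immediate early genes, the transcription factors and feedback regulators that cells switch on within minutes of stimulation. The summed normalized counts of 17 such genes, among them Fos, Jun and Zfp36, were 99783, 89436 and 81729 in WT SP, against 21844, 46650 and 14413 in Δβ SP. They were 23132, 16167 and 68962 in WT BM and 41781, 17975 and 27886 in Δβ BM. In each of the 4 groups, the library with the highest sum was also the library with the most Ccl2, the most Ccl4 and the most Cxcl2. These were WT SP replicate 1, Δβ SP replicate 2, WT BM replicate 3 and Δβ BM replicate 1. Ccl2, Ccl4 and Cxcl2 were correlated with each other (r = 0.67 to 0.78), so these are not 3 separate matches. How many of all genes tested were highest in the same 4 libraries was not counted. Ccl6 was highest in the same library in 3 of 4 groups, Ccl3, Ccl9 and Cxcl10 in 2, and Cxcl9 and Cxcl16 in 1. Such sharing was not limited to this list: Ccl2, Ccl4 and Cxcl2 were each highest in the library with the highest NF-kB sum in 3 of 4 groups, and in that with the highest macrophage sum in 3 of 4, while Ccl6 and the NF-kB sum shared theirs in 4 of 4. In SP all 17 genes were lower in Δβ by sign (median -1.80), 13 at an unadjusted p under 0.05 and 0 called, and in WT all 17 were higher in SP than in BM (median 1.42, 0 called). All 17 kept these signs without WT SP replicate 3. In that fit 9 were called lower in Δβ SP, beside 11.7% of all genes. By organ, 3 were called higher in WT SP than in WT BM, beside 4.23% of all genes. Without WT SP replicate 1 all 17 kept the signs as well, with 0 called. The part of this signature in the chemokine values was not tested.

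**Figure D4:**
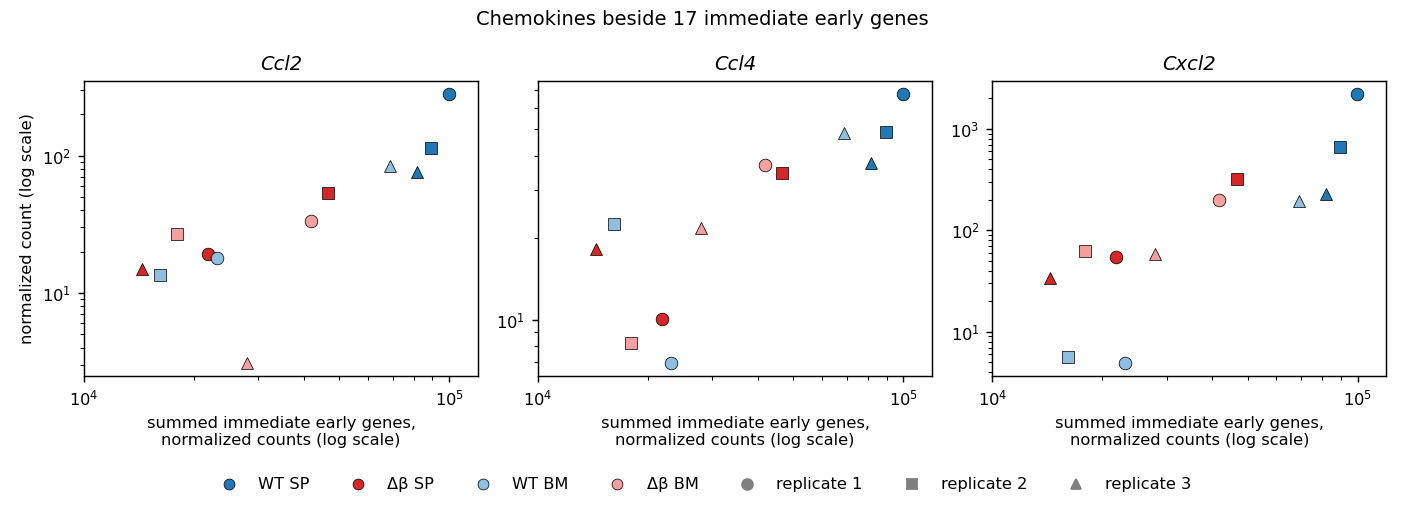
Normalized counts of Ccl2, Ccl4 and Cxcl2 (vertical axes, log scale) against the summed normalized counts of 17 immediate early genes (horizontal axes, log scale), 1 point per library. WT SP replicate 1 is at the top right in all 3 panels, and WT BM replicate 3 lies apart from the other WT BM libraries and close to WT SP replicate 3.

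Of 20 tested genes of an NF-kB response list, 20 had a negative log2 estimate between genotypes in SP (median -0.65). Of all genes tested, 48.1% had a positive one. Tnf, the gene of the cytokine TNF, was the 1 gene called: WT SP gave 699.7, 705 and 463 normalized counts and Δβ SP 106, 173 and 106 (log2 fold change -2.28, SE 0.29, limma adjusted p = 0.0353). All WT values were above all Δβ values. The adjusted p was 0.00683 without WT SP replicate 3, but Tnf was not called by limma when WT SP replicate 1 or 2, Δβ SP replicate 1 or 3, WT BM replicate 2 or Δβ BM replicate 3 was left out (adjusted p = 0.0505 to 0.138, log2 fold change -2.17 to -2.28). Without WT SP replicate 3, 11 of the 20 genes were called lower in Δβ SP, beside 11.7% of all genes. Without WT SP replicate 1, 16 of 20 were negative and 0 called. In BM the log2 fold change of Tnf was -0.78 (SE 0.29, limma adjusted p = 1.0). The sums of the 25 NF-kB genes were 31080.2, 23836 and 14212 in WT SP, and 13897 to 16376 in Δβ SP. The order in WT SP was the same for Ccl2, Ccl4, Ccl6, Ccl9 and Cxcl2. It was also that of the summed immediate early, interferon and tissue macrophage genes, so it was not particular to NF-kB.

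The interferon sum and Cxcl10 were highest in the same library in 2 of 4 groups, WT BM and Δβ BM (replicate 1 in both), and in different libraries in WT SP and Δβ SP. Of 21 tested genes of an interferon response list, 19 had a positive log2 fold change in Δβ SP (median 1.22, 0 called). This was so for 48.1% of all genes tested. In BM 21 of 21 were positive (median 0.89), beside 45.3% of all genes. All 3 Δβ SP values were above all 3 WT SP values for 12 of the 21, beside 7.92% of all genes. Psmb8, which encodes an immunoproteasome subunit, had a log2 fold change of 0.87 in SP (SE 0.20, limma adjusted p = 0.168) and Irf8, a myeloid transcription factor, had one of 0.71 (SE 0.38, limma adjusted p = 0.387). Neither passed the threshold. When WT SP replicate 3 was left out, 6 of the 21 genes were called higher in Δβ SP. That fit called 1884 of 11476 genes in either direction, 1345 of them lower. When WT SP replicate 1 was left out, 0 of the 21 were called. The summed interferon genes reached 36115 and 35292 in Δβ SP replicates 1 and 2, but Cxcl10 was highest in WT SP replicate 3, the library with the lowest interferon sum of all 12 (11425). Cxcl9 was highest in Δβ SP replicate 3, whose sum (17685) was the lowest of Δβ SP.

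**Figure D5:**
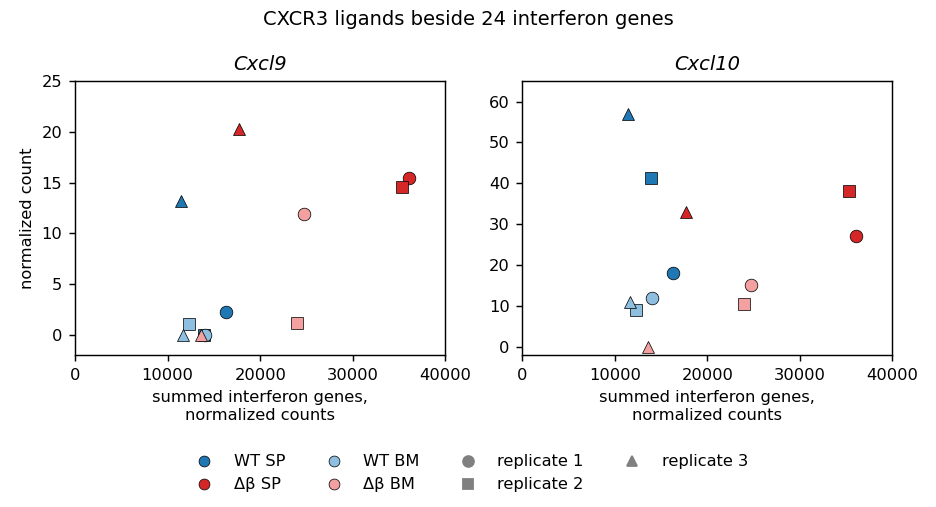
Normalized counts of Cxcl9 and Cxcl10 (vertical axes) against the summed normalized counts of 24 interferon response genes (horizontal axes), 1 point per library on linear axes from 0. The 2 libraries with the highest sums, Δβ SP replicates 1 and 2, have fewer Cxcl10 counts than WT SP replicates 2 and 3.

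The matching receptors were also present on the RNA level, in part. Ccr2, the Ccl2 receptor, averaged 2703 normalized counts over the 12 libraries and ranged from 925 to 4782, and Ccr1 averaged 1237, from 538.9 to 2127. Cxcr2, the Cxcl2 receptor of neutrophils, ranged from 71.0 in WT SP replicate 3 to 919.9 in WT SP replicate 2. Cxcr3 and Cxcr6 had means of 7.17 and 9.20 and stood out in Δβ BM replicate 1 alone, at 42.4 and 41.3. None of the 4 tested receptors was called in any of the 5 comparisons. Of 29 other chemokine genes, 10 had no read in any library and 12 reached 3 reads, and Ccl5 and Ccl25 were the 2 with a mean of at least 10. Ccl5, a chemokine of lymphocytes among other cells, was at 46.5 in Δβ SP replicate 1 and at 64.1 in Δβ BM replicate 1 and at most 12.8 elsewhere (log2 fold change 1.38 in SP, SE 1.45, limma adjusted p = 0.640). Ccl25 averaged 29.7 normalized counts over the 12 libraries, and its log2 fold change in SP was 0.48 (SE 0.37, limma adjusted p = 0.519).

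Markers of other cells, and the mature neutrophil genes, moved in part with the chemokines. Of the 12 tissue macrophage genes, C1qa, C1qb and C1qc were at 14.8, 30.8 and 5.70 normalized counts in WT SP replicate 1 and at most 4.27 in all other libraries, and Timd4 reached at most 3.42. Marco, a scavenger receptor gene of macrophages, was at 14.8, 21.2 and 12.2 in WT SP, at 0 in all 3 Δβ SP libraries and at most 2.34 in BM. Hmox1, a heme oxygenase gene of macrophages that other cells induce, had 3925, 1402 and 314 in WT SP and 167 to 299.9 in Δβ SP. The sum of the 12 genes ranged from 2393 to 5484 in WT SP against 1607 to 3110 in Δβ SP, and from 4913 to 7195 in WT BM against 2366 to 3378 in Δβ BM, mostly from Vcam1, Slc40a1 and Hmox1. Mature neutrophil genes summed to 60062 to 139711 in WT SP against 41295 to 57402 in Δβ SP, and to 80210 to 189192 in WT BM against 66389 to 100947 in Δβ BM. All 6 genes had a negative log2 fold change in Δβ SP (median -1.14, 0 called). Without WT SP replicate 3, 2 of them were called lower, beside 11.7% of all genes. Lymphoid genes summed to 132.6 in Δβ BM replicate 1 and to at most 47.9 elsewhere, and stromal genes to 27.1 to 534. Pdgfrb made up most of the highest stromal sum, at 529 in Δβ BM replicate 3. Of the other stromal genes, Col1a1 reached at most 19.1 in any library, and Lepr, Col3a1 and Dcn at most 7.98. The 5 megakaryocyte and platelet genes summed to 43.7 to 106. The part of these cells in the chemokine values was not tested.

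Over the 12 libraries, the genes whose log2 pattern was most like that of a member were sought by Pearson's r among all genes tested, as a description, since the libraries fall into the same 4 groups for every gene. For Ccl6 they were Dram2, Stk17b and Lyn (r = 0.98 each), for Ccl9 Zcchc24 (0.98), Naip2 (0.95) and Naip1 (0.94), for Ccl2 Pdcd6 (0.95), Pla2g7 (0.93) and Eapp (0.91), and for Cxcl2 Plk3 (0.95), 4833439L19Rik (0.95) and St3gal6 (0.93). No gene reached 0.9 for Ccl3, Ccl4 and Cxcl10. Among the members, Ccl3 and Ccl4 were the most alike (r = 0.84), followed by Cxcl2 with Ccl4 and with Ccl2 (0.78 each) and by Ccl6 with Ccl9 (0.73).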

How the data were processed

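RNA of Venus-sorted blasts was sequenced from poly-A enriched libraries, 3 per genotype and organ. The deposited values are a signal per gene, which the authors made as a read count divided by 1 size factor per library. FastQC, STAR, featureCounts, DESeq2 and GRCm38/mm10 are named in the submitters' processing notes, with no versions. All values (100%) were whole multiples of the library's smallest value within 0.01, and reads were recovered by that step. In 6 further columns no sample is named, and they were not used.

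Groups and replicate numbers come from the labels. Genes with a mean of at least 10 were fitted on log2(normalized count + 1) with limma 3.58.1 (lmFit, eBayes with trend, R 4.3.3), 1 mean per group and 8 residual degrees of freedom, and called at an adjusted p under 0.05. An exact permutation test of 3 against 3 cannot go below a two-sided p of 0.1. edgeR 4.0.16 (quasi-likelihood) and DESeq2 1.42.0 were run on the recovered reads as alternatives. The procedure was tested on simulated data. The 9 members and the lists (other chemokines, receptors, NF-kB, interferon, immediate early, blast, macrophage, erythroid, megakaryocyte and platelet, endothelial, stromal, lymphoid and neutrophil genes) were chosen with earlier results of these data known. Named genes are the members, Stat3, up to 4 called genes of a list (otherwise the up to 3 most abundant tested) and the 3 most like genes of a member where r was at least 0.9. Some genes that this rule names are not reported here. Others named here were chosen after their values were seen. Same-numbered SP and BM libraries deviated together in Δβ (r = 0.66, 0.61 and 0.63) but not in WT (-0.01, -0.04 and -0.24). A block for the number within each genotype, added after the data were seen, changed no call of a member.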

Additional observations from a re-analysis of the deposited data

How the results depend on the processing

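The alternatives were other pseudocounts, filters, scalings and tools, a replicate block, fits of the compared libraries alone and each library left out. Apart from leaving out libraries, 312 alternative log2 fold changes of the members kept direction and call, 1 gained a call (Ccl6 in SP with DESeq2) and 6 changed sign. The cause was not tested. In SP the 12 genes called between genotypes became 1 with a pseudocount of 0.25, 5 without the filter, 2 with a minimum mean of 50, 3 with TMM, 4 with edgeR, 457 with DESeq2, 2 with a replicate block and 2 with the SP libraries alone. In BM the 8 became 37 with DESeq2, 5 with the replicate block and 3 alone. DESeq2 called 111 genes by organ in WT, 2 in Δβ and 3 for the interaction, where limma called 0. The block changed no call of a member.

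Signs changed with edgeR and DESeq2 for Ccl3 between genotypes in BM (-0.25 and -0.26) and Cxcl2 between organs in Δβ (0.35 and 0.38), with edgeR for Ccl6 between genotypes in BM (0.0028) and with DESeq2 for Ccl9 between organs in WT (0.0082), none of them called.

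With 1 library left out, so that 1 group keeps 2, the genes called between genotypes ranged from 1 to 1884 in SP and from 1 to 13 in BM, and those between organs in WT from 0 to 598, each highest number in SP and WT being that without WT SP replicate 3. Members called ranged from 0 to 1 in SP and from 0 to 2 between organs in WT. Log2 fold changes crossed 0 in SP for Cxcl10 (-0.56 to 0.23). In BM they did for Ccl2 (-1.42 to 0.12), Ccl3 (-0.76 to 0.65), Ccl4 (-0.77 to 0.54), Ccl6 (-0.69 to 0.33) and Cxcl10 (-1.77 to 0.24). Between organs they did in WT for Ccl9 (-0.42 to 0.43) and in Δβ for Ccl2 (-0.25 to 1.29), Ccl3 (-0.70 to 0.0070), Ccl4 (-0.58 to 0.44), Ccl9 (-0.55 to 0.48) and Cxcl2 (-1.05 to 0.54). The interaction crossed 0 for Ccl9 (-0.56 to 0.55) and Cxcl10 (-0.35 to 1.66). Cxcl9, Cxcl10 and Cxcl16 rest on at most 56 reads a library, which limits their precision.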
